A study of Mus musculus with 6 samples.

Results

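The GATA factors and the TAL1 complex are the transcription factors that set the erythroid and megakaryocytic programme, and 10 of their genes were followed here in the sorted megakaryocyte-erythroid progenitors (MEP) of mice, marrow cells from which red cells and platelets arise. The genes were Gata1, Gata2, Gata3, Zfpm1, Tal1, Lyl1, Lmo2, Ldb1, Cbfa2t3 and Gfi1b. They were chosen by name, each as the probe set with that single gene symbol and the highest mean over 6 Affymetrix arrays, and all 10 were found among 22180 genes. RNA came from T-bet knockout mice (3 arrays) and from wild-type mice (3 arrays), both labelled C57BL/6. The design text counts 1 animal per array, and MEP were isolated by flow sorting of fresh marrow stained with antibodies. T-bet, encoded by Tbx21, is a T-box transcription factor known from T helper 1 and natural killer cells. The knockout allele, the sorting antibodies, and the age and sex of the mice are not named in those labels.

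GATA proteins bind the letters GATA through paired zinc fingers. In erythroid and megakaryocytic cells GATA1 or GATA2 sits beside a complex in which TAL1 or its relative LYL1, paired with an E protein, contacts an E-box, LMO2 bridges the DNA-bound partners, and LDB1 joins complexes into chromatin loops. FOG1 (Zfpm1) is the GATA1 cofactor that brings in the NuRD corepressor, ETO2 (Cbfa2t3) holds the TAL1 complex in a repressive state, and GFI1B recruits LSD1 and CoREST. During erythroid maturation GATA1 displaces GATA2 at shared sites, the GATA switch.

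Several of these genes are known targets of the factors they encode, so their promoters were read for the motifs of the complex and of the missing factor. RefSeq promoter windows (GRCm38.p6, 250 bases before to 50 after a start) were given for 9 of the 10 genes, 14 windows in all. The GATA motif was searched as AGATAA or AGATAG and with T in front as TGATAA or TGATAG, the E-box as CANNTG and the core of the T-box site as GGTGTGA, each on both strands and allowing overlaps. A GATA motif stood in 5 of the 14 windows, against 29.8% of 32851 windows of all genes. An E-box stood in 9 of the 14, against 72.3% of all windows. The T-box core stood in 1 of the 14, against 3.98% of all windows. Printed below are the Gata2 window, the one that held the letters a T-box factor binds, and the windows of Tal1, Gfi1b and Cbfa2t3, a core activator and the pair of repressors, which held a GATA motif. Capitals mark the T-box core in Gata2 and the GATA motif in the others, in either orientation; E-boxes are not marked.
Gata2, chr6:88193641-88193940, plus strand: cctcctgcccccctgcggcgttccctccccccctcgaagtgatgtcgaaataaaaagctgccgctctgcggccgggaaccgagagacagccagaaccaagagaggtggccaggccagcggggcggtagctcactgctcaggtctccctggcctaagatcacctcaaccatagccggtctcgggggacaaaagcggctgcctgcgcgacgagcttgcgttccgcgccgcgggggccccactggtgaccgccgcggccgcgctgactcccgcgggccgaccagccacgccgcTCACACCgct
Tal1, chr4:115056176-115056475, plus strand: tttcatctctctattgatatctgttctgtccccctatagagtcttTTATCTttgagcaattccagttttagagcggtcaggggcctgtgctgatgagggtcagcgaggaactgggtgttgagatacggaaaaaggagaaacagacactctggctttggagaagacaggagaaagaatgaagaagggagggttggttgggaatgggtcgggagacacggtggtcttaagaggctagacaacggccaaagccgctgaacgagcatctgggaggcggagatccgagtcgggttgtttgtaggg
Gfi1b, chr2:28621933-28622232, minus strand: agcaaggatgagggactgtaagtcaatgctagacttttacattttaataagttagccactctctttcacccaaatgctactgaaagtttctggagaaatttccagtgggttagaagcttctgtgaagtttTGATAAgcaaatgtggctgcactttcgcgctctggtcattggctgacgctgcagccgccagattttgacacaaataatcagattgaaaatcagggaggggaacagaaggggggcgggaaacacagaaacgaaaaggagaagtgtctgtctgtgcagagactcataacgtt
Cbfa2t3, chr8:122699060-122699359, minus strand: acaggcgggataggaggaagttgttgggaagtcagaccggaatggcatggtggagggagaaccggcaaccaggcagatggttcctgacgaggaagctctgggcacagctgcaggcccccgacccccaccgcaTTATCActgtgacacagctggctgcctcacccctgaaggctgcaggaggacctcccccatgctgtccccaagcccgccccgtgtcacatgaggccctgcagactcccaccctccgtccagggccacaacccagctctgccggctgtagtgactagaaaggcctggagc
The T-box core of Gata2 lay 40 bases after the annotated start, in reverse orientation (TCACACC). A match is a description of letters; binding was not measured.

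Values below are log2 signals, and a difference is knockout minus wild type, so 1 unit is a doubling of signal. Array medians lay between 6.44 and 6.53. Tbx21 itself, the targeted gene, read 6.41, 6.60 and 6.46 on the T-bet knockout arrays, against 6.54, 6.62 and 6.59 on the wild-type arrays, so it gave no check of the genotype labels. Sex-linked RNA did not match single animals on every array. Xist, the RNA of the inactive X chromosome, was 11.8, 11.8 and 5.42 in T-bet knockout replicates 1 to 3, against 11.8, 12.2 and 5.56 for the wild types. Y-linked Eif2s3y was 8.39, 8.86 and 9.73 in the knockouts, against 8.78, 4.95 and 9.70 in the wild types. Both signals were present on knockout replicates 1 and 2 and on wild-type replicate 1, and each member's difference without these 3 arrays is given beside it. That fit sets 1 knockout array against 2 wild-type arrays. Its SE rests largely on the variance that limma takes from all probe sets, and only in part on the spread of the wild-type arrays. It also assumes that the lone knockout array varies as the wild-type arrays do. Markers of MEP were compared with the dimmest probe sets, since background is unknown here. Kit, the stem cell factor receptor of these progenitors, averaged 12.01 ± 0.02 in knockout and 12.01 ± 0.06 in wild-type arrays (SD, n = 3 each). All 8 measured erythroid and all 8 measured megakaryocyte markers lay outside the dimmest 30% of probe sets, which had means up to 5.70 and are called dim below. Most markers of some other cells did so too. Dim were 1 of 8 measured B cell markers, 1 of 10 of granulocytes and monocytes, 4 of 9 of T cells and 6 of 9 of mast cells and basophils. This check therefore did not set MEP apart from all other cells. The p-values that follow weigh a group difference against the spread within groups of arrays, which limma pulls towards that of all probe sets.

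None of the 10 genes differed between T-bet knockout and wild-type MEP beyond the spread between arrays. With limma over all 41345 probe sets and Benjamini-Hochberg adjustment, 0 of the 10 passed an adjusted p of 0.05, against 0% of all probe sets, and every member's adjusted p was 1. At an unadjusted p under 0.05 there were again 0 of the 10, against 3.13% of genes (1.44% higher and 1.70% lower in the knockout), and the groups overlapped for all 10, where they did not overlap for 8.70% of genes. The differences ran from -0.10 to 0.09 with a median of 0.005 (6 above 0 and 4 below), beside a median of -0.004 over all genes. The median size, irrespective of sign, was 0.040 for the 10 and 0.075 for all genes. All 10 lay outside the dim 30%. Their 95% intervals all stayed within 1.5-fold in either direction, as did those of 85.9% of all genes and 93.1% of genes outside the dim 30%. A difference in signal on an array can understate a difference in RNA, and in sorted bulk cells fewer cells of a type and less RNA per cell cannot be told apart.

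**Figure D1:**
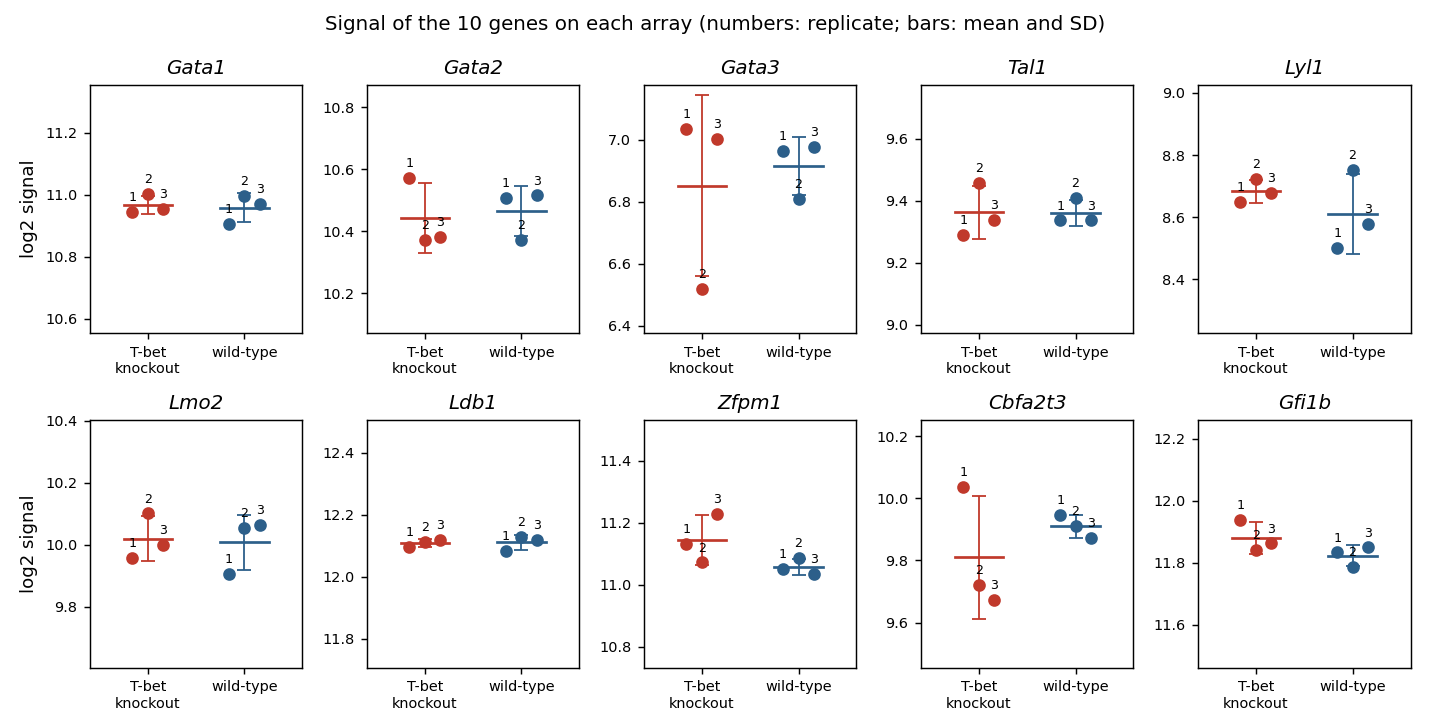
Log2 signal (vertical axis, the same span of 0.8 in every panel) of the 10 genes on the 3 T-bet knockout arrays (red, left) and the 3 wild-type arrays (blue, right). Numbers give the replicate, horizontal bars the group mean and error bars the SD; the groups overlap in every panel, and Gata3 and Cbfa2t3 scatter most among the knockout arrays.

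Among the GATA factors, Gata1 was measured on an X-linked gene whose product is required for the maturation of red cell precursors and megakaryocytes. It read 10.944, 11.001 and 10.955 in T-bet knockout replicates 1 to 3, against 10.906, 10.996 and 10.971 in wild-type replicates 1 to 3. All 6 values lay within 0.095, and replicates 1, 3 and 2 stood in the same ascending order in each group. The difference was 0.009 (SE 0.084, 95% interval -0.19 to 0.21), which bounds the signal within 1.16-fold. Without the 3 arrays of mixed sex-linked signal it was -0.03 (SE 0.14), and the 2 wild-type arrays left were those with Xist alone and with Y-linked signal alone.

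Gata2 encodes the factor of stem cells and early progenitors. Its signal was 10.57, 10.37 and 10.38 in the knockout arrays, against 10.51, 10.37 and 10.52 in the wild-type arrays. Knockout replicate 1 was the highest array, and the lowest values of the groups were equal to the second decimal. The difference was -0.02 (SE 0.10, 95% interval -0.27 to 0.22, a bound of 1.20-fold), and -0.06 without the mixed arrays. This is the gene whose promoter window carries the T-box core shown above.

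The balance of RNA signal between the factors of the GATA switch was also followed within each array, as Gata1 minus Gata2. Displacement at shared sites was not measured. The level of this quantity, Gata1 minus Gata2, depends on the probes, and only its differences between arrays are read. It was 0.37, 0.63 and 0.57 in knockout replicates 1 to 3, against 0.40, 0.62 and 0.45 in wild-type replicates 1 to 3. The means were 0.52 ± 0.14 in knockout and 0.49 ± 0.12 in wild-type arrays (SD, n = 3 each), a difference of 0.03, also without the mixed arrays, that was smaller than either SD. Replicate 1 had the lowest and replicate 2 the highest balance in each group.

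Gata3, the GATA factor of T cells and innate lymphoid cells, varied most of the 10. It read 7.036, 6.518 and 7.004 in the knockout arrays, against 6.965, 6.809 and 6.976 in the wild-type arrays. Replicate 2 was the lowest array of each group. The difference was -0.06 (SE 0.16, 95% interval -0.44 to 0.31), the widest interval of the 10, with a bound of 1.36-fold. Its sign rested on knockout replicate 2: the difference was 0.10 without that array, and 0.11 without the 3 mixed arrays. A further Gata3 probe set read 7.01, 6.54 and 6.74 in the knockout arrays, against 6.85, 6.58 and 6.77 in the wild-type arrays, with replicate 2 again lowest in each group and a difference of 0.04 (SE 0.15). Another, dim probe set is listed for Gata3 together with other genes and cannot be assigned to it; it read 5.77, 5.59 and 5.71 in the knockout arrays, against 5.53, 5.13 and 5.51 in the wild-type arrays. Its groups did not overlap, as for 3827 of all 41345 probe sets, with a difference of 0.30 (SE 0.14, limma adjusted p = 1).

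Markers of lymphoid cells were set beside Gata3. The mean signal of 8 measured B cell markers was 7.27, 6.84 and 7.58 in knockout replicates 1 to 3, against 7.04, 6.57 and 7.09 in wild-type replicates 1 to 3, so replicate 2 was lowest in each group here too. The mean of 9 measured T cell markers, 4 of them dim, was 6.08, 5.90 and 5.92 in knockout replicates 1 to 3. It was 5.99, 5.90 and 5.85 in wild-type replicates 1 to 3. Replicate 2 was thus lowest in the knockout and replicate 3 in the wild type. The part of other cells in the Gata3 signal was not tested.

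**Figure D2:**
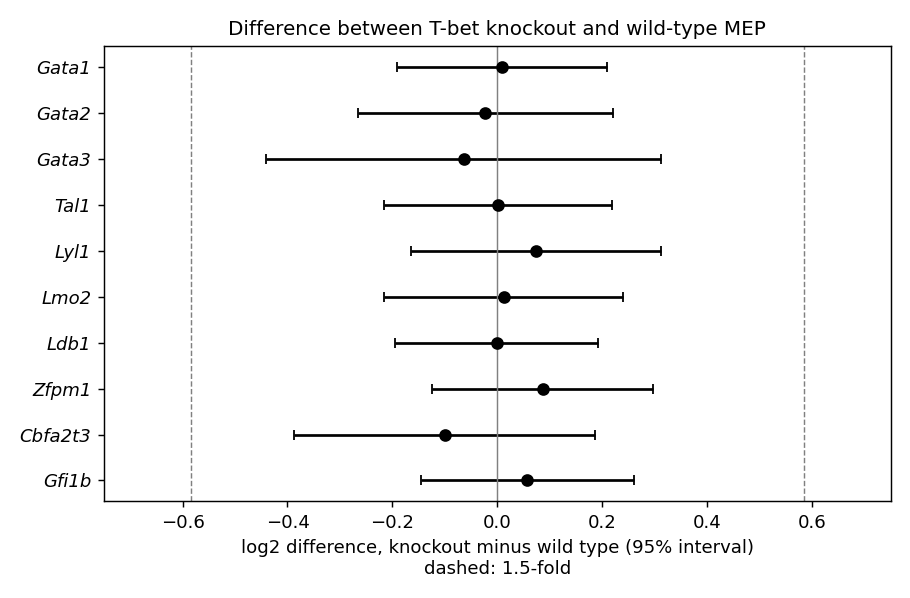
Log2 difference, T-bet knockout minus wild type (horizontal axis), of each gene with limma's 95% interval from 3 arrays per group. All 10 intervals include 0 and lie inside the dashed lines at 1.5-fold; that of Gata3 is the widest and that of Ldb1 the narrowest.

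The DNA-binding and bridging subunits of the TAL1 complex are described next. Tal1, the basic helix-loop-helix factor without which no blood forms, read 9.29, 9.46 and 9.34 in the knockout arrays, against 9.34, 9.41 and 9.34 in the wild-type arrays. Both the highest and the lowest of these arrays were knockouts. The difference was 0.001 (SE 0.091, 95% interval -0.22 to 0.22), and -0.03 without the mixed arrays.

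Lyl1, the TAL1 relative that can stand in for it in adult progenitors, read 8.65, 8.72 and 8.68 in the knockout arrays, against 8.50, 8.75 and 8.58 in the wild-type arrays. The knockout values all fell between the highest and the lowest wild-type array. Its difference of 0.07 (SE 0.10, 95% interval -0.17 to 0.31) became 0.01 without the mixed arrays, since wild-type replicate 1 held the lowest value.

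Lmo2, the LIM-only bridge between the GATA factor and TAL1, read 9.958, 10.101 and 10.001 in the knockout arrays, against 9.906, 10.054 and 10.065 in the wild-type arrays. Replicate 1 was lowest in each group, as for Tal1 and Lyl1. The difference was 0.01 (SE 0.10, 95% interval -0.22 to 0.24), and -0.06 without the mixed arrays.

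Ldb1, which dimerises to hold an enhancer and a promoter together, had the tightest values of the 10. It read 12.10, 12.11 and 12.12 in the knockout arrays, against 12.08, 12.13 and 12.12 in the wild-type arrays. The whole range over 6 arrays was 0.044, and 0.153% of genes had a smaller SD within groups. The difference of -0.001 (SE 0.081, 95% interval -0.20 to 0.19) bounds the signal within 1.14-fold, and without the mixed arrays it was -0.004. That interval is far wider than the 6 values because limma pulls each gene's variance towards that of all probe sets.

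The cofactors and repressors held the largest differences, those of Cbfa2t3 and Zfpm1, and these too were within the spread. Zfpm1, encoding FOG1, read 11.13, 11.07 and 11.23 in the knockout arrays, against 11.05, 11.09 and 11.03 in the wild types. Of the knockouts, replicates 1 and 3 lay above every wild-type array and replicate 2 lay below wild-type replicate 2. The difference was 0.09 (SE 0.09, 95% interval -0.12 to 0.30), a size exceeded by many genes, since 55.5% of genes had a smaller one. Without the 3 mixed arrays it was 0.17, against an SE of 0.14.

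Cbfa2t3, encoding ETO2, read 10.04, 9.72 and 9.67 in the knockout arrays, against 9.95, 9.91 and 9.87 in the wild-type arrays. Knockout replicate 1 was the highest of all arrays and the other knockout arrays were the lowest. The difference was -0.10 (SE 0.12, 95% interval -0.39 to 0.19). Leaving out knockout replicate 1 took it to -0.21 and leaving out all mixed arrays to -0.22, and leaving out knockout replicate 3 took it to -0.03; limma's adjusted p over the alternatives was 0.709 or more, and 0.702 in the fit with 1 knockout array.

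Gfi1b, encoding the SNAG-domain repressor needed by red cell and platelet precursors, read 11.94, 11.84 and 11.86 in the knockout arrays, against 11.83, 11.79 and 11.85 in the wild-type arrays. Knockout replicate 2 lay below wild-type replicate 3, the one point at which the groups overlapped. The difference was 0.06 (SE 0.09, 95% interval -0.14 to 0.26), and 0.04 without the mixed arrays.

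For these genes the replicate number took a larger median share of the variation, and genotype a smaller one, than over all genes. Replicate number has more levels than genotype and takes the larger share without any effect, so each share is read beside that of all genes. Replicate number took a median of 74.0% of a member's sum of squares over the 6 arrays and genotype 2.60%, beside medians of 47.6% and 11.1% over all genes and of 50.7% and 10.4% outside the dim 30%. The share of replicate number was 86.6% for Gata1, 88.1% for Tal1, 86.4% for Ldb1 and 83.1% for Lmo2. Such shares divide little variation, since the 6 values spanned 0.095 for Gata1 and 0.044 for Ldb1. It was 12.3% for Zfpm1, the gene with the largest genotype share, 44.5%. Replicate 2 was the highest array of each group for Gata1, Tal1 and Lyl1 and the lowest of each group for Gata2, Gata3 and Gfi1b, 6 of the 10 genes against 22.5% of all genes. Replicate 1 was the lowest of each group for Gata1, Tal1, Lyl1, Lmo2 and Ldb1 and the highest of each for Cbfa2t3, again 6 of the 10 against 38.8% of all genes. Replicate 3 was the lowest of each group for Cbfa2t3 and the highest of each for no member, 1 of the 10 against 22.4% of all genes. These shares are descriptions, and the 10 genes are not independent of each other.

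The labels do not say what a replicate number shares. Arrays numbered 1 carried both Xist and Y-linked signal in each group and arrays numbered 3 Y-linked signal alone, so number and sex-linked signal cannot be told apart for them. The mean of 8 erythroid markers was also lowest on replicate 1 of each group, at 10.67 in the knockout and 10.69 in the wild-type array, where the other arrays read 10.83 and 10.88 in the knockout and 10.73 and 10.75 in the wild type. Whether the maturity of the sorted cells moved with these values was not tested. With replicate number as a block, limma again called 0 of the 10 genes and 0 probe sets.

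Profiles as flat as these were common. Over the 6 arrays, the genes whose mean-centred profile lay nearest to that of Gata1 were Ccdc174, Copg2 and Rps26, at root mean square distances of 0.0075, 0.012 and 0.0124. Of 16295 genes outside the dim 30%, 7012 lay within 0.1 of Gata1. Nearest to Gata2 were Pde4d, Sema5a and Strada, at 0.0209, 0.022 and 0.0222, and 3040 genes lay within 0.1.

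The partners and relatives of the 10 genes were even as well. Of 14 measured TAL1 complex partners, which include the E proteins, the single-stranded DNA-binding SSBP cofactors and RUNX1, 0 passed limma's adjusted p and 0 an unadjusted p under 0.05, with a median difference of 0.01 (0.06 without the mixed arrays). Tcf3, whose E2A proteins pair with TAL1, averaged 11.18 ± 0.03 in knockout and 11.13 ± 0.04 in wild-type arrays (SD, n = 3 each). The members of smallest p were Tal2 (-0.15, SE 0.17), Lmo1 (0.12, SE 0.15) and Runx1t1 (-0.09, SE 0.12), a TAL1 relative, an LMO2 relative and an ETO2 relative. Of these, Lmo1 was dim. All 14 intervals stayed within 1.5-fold.

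The Id proteins, which take E proteins away from TAL1, had 0 of 4 genes past either threshold. Id4 averaged 6.05 ± 0.10 in knockout and 6.28 ± 0.18 in wild-type arrays (SD, n = 3 each), a difference of -0.23 (SE 0.12, limma adjusted p = 1). Differences were 0.08 for Id3, -0.11 for Id1 and 0.03 for Id2. Among 5 further GATA-type and FOG-type genes, 4 differences were negative and 1 positive, and 0 passed either threshold. These were Gata4 at 0.14, Gata5 at -0.09, Gata6 at -0.07, Trps1, a GATA-type repressor, at -0.05, and Zfpm2, the FOG1 relative of heart and gonad, at -0.003. Of these, Gata6 was dim.

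The corepressors that FOG1 and GFI1B bring to DNA were among the most narrowly bounded lists. In NuRD, 0 of 11 subunit genes passed either threshold, the median difference was 0.01, and the widest interval gave a bound of 1.25-fold. The histone-binding and remodelling genes Mta2, Chd4 and Rbbp4 had the smallest p, at 0.09 (SE 0.09), -0.07 (SE 0.08) and 0.07 (SE 0.09). The groups did not overlap for 1 of the 11, Chd4. In the LSD1 and CoREST list 0 of 8 passed either threshold, with a median of 0.01 (0.04 without the mixed arrays). Phf21a, a reader of unmethylated histone H3 in that complex, averaged 7.91 ± 0.07 in knockout and 8.07 ± 0.05 in wild-type arrays (SD, n = 3 each). Its groups did not overlap, the case for 1 of the 8 genes and for 8.70% of all genes, and it differed by -0.17 (SE 0.09, limma adjusted p = 1). Kdm1a, which encodes LSD1, differed by 0.08 and Rcor3 by 0.11.

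**Figure D3:**
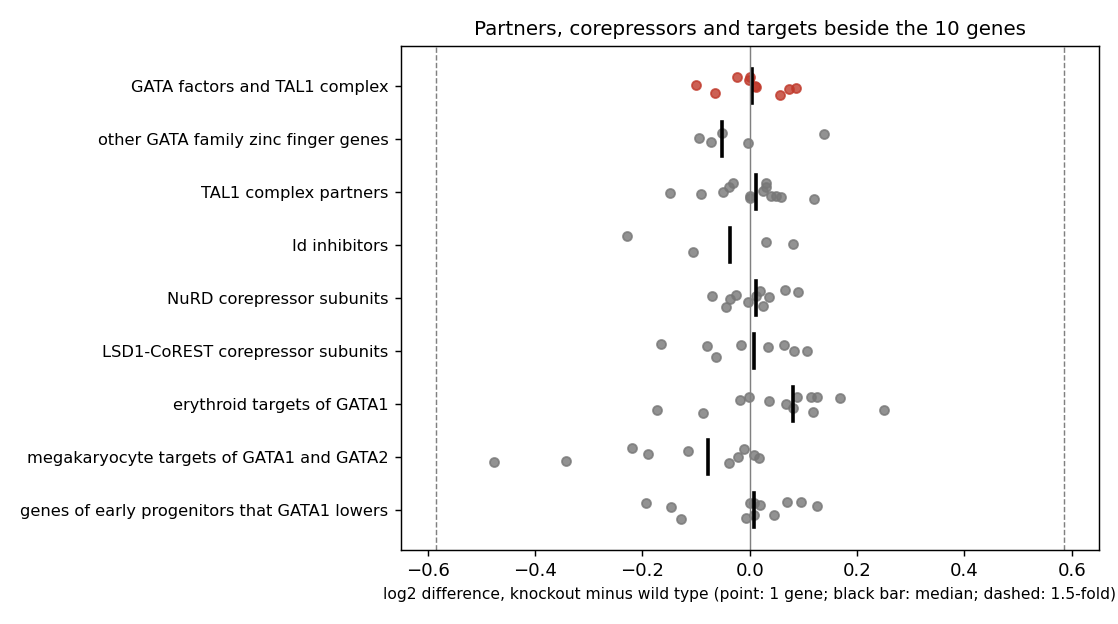
Log2 difference, T-bet knockout minus wild type (horizontal axis), of every measured gene (points) in the 10-gene set (red) and in 8 lists of partners, corepressors and targets (grey), with the median of each list as a black bar. No point lies beyond the dashed lines at 1.5-fold, and the point farthest from 0 is Pf4 among the megakaryocyte targets.

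Known target genes of the factors were read next. Of 13 measured erythroid targets of GATA1, 9 were above 0 and 4 below, with a median of 0.08 (0.14 without the 3 mixed arrays), and 0 passed either threshold. Klf1, the erythroid Kruppel-like factor, averaged 10.72 ± 0.04 in knockout and 10.60 ± 0.11 in wild-type arrays (SD, n = 3 each). Epb42, a membrane skeleton gene, differed by 0.25 (SE 0.14), Fech, the last enzyme of heme synthesis, by 0.17 (SE 0.14), and the mitochondrial iron importer gene Slc25a37 by -0.17 (SE 0.14).

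Of 10 measured megakaryocyte targets, 2 were above 0 and 8 below, with a median of -0.08 (-0.04, with 4 above and 6 below, without the 3 mixed arrays). Of them, 0 passed limma's adjusted p, and 1 had an unadjusted p under 0.05 and was lower, where 1.70% of genes did. That gene was Itga2b, the CD41 integrin chain and a GATA1 target. It read 7.25, 7.15 and 7.34 in knockout replicates 1 to 3, against 7.50, 7.41 and 7.86 in wild-type replicates 1 to 3. Every knockout value was below every wild-type value, and the groups did not overlap, in either direction, for 8.70% of all genes. Itga2b differed by -0.34 (SE 0.14, limma adjusted p = 1). Pf4, the platelet factor 4 gene, differed by -0.48 (SE 0.21) and Vwf, the von Willebrand factor gene, by -0.19 (SE 0.12), both with overlapping groups and both lower in the knockout in 3 of 3 same-numbered pairs. On the same arrays 8 of 9 stem and multipotent progenitor markers were below 0 and 7 of 8 B cell markers above 0; their part in these values was not tested. Over the same arrays Gata1, Zfpm1 and Gfi1b, which act on megakaryocyte genes, differed by 0.009, 0.09 and 0.06. Gata2 and Cbfa2t3 differed by -0.02 and -0.10, and of all 10 members 6 were above 0 and 4 below. The part of these factors in the megakaryocyte values was not tested.

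Genes of early progenitors that GATA1 lowers showed 0 of 12 past either threshold and a median of 0.01. Kit differed by less than 0.01 (SE 0.08), and Myb, a progenitor transcription factor gene, read between 12.72 and 12.76 on all 6 arrays. The smallest p belonged to Mecom at -0.13 (SE 0.09), Zfp521 at 0.12 (SE 0.11) and Spred2 at 0.09 (SE 0.10). Of these, Mecom was dim. The groups did not overlap for 2 of the 12, Mecom and Hhex, beside 8.70% of all genes. Spi1, encoding the PU.1 protein that opposes GATA1, averaged 7.37 ± 0.08 in knockout and 7.35 ± 0.17 in wild-type arrays (SD, n = 3 each). Mast cells and basophils also depend on GATA2, and their markers were set beside it. Of 9 measured, 6 were dim, 0 passed either threshold, and their mean ranged from 5.34 to 5.65 in the knockout and from 5.42 to 5.64 in the wild-type arrays. Cpa3, a mast cell protease gene also read in progenitors, was 8.99, 8.76 and 8.88 in the knockout arrays, against 9.03, 8.48 and 9.06 in the wild-type arrays. Like Gata2 it was lowest on replicate 2 of each group, and so were 2664 of all 22180 genes. The mean of the 9 markers did not follow that order, being lowest on knockout replicate 3 (5.34) and wild-type replicate 2 (5.42).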

How the data were processed

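The deposited values are log2 signals of 41345 probe sets on 6 arrays. The submitters' processing notes name Affymetrix Expression Console 1.4.1.46; how the authors corrected background, normalized and summarised probes is stated neither in the labels nor in the file. Control probe sets are not marked and stayed in the fit. The log2 base was inferred from the values, whose highest, 14.2, exceeds 11.1, the natural log of a 16-bit maximum. Detection calls were not used, and background is therefore unknown for every probe set; the number of arrays limits the precision. The array annotation named 23521 probe sets with 1 symbol, of which 23328 were updated by gene ID through RefSeq (GRCm38.p6). A further 1814 listed several genes and 16010 were unnamed here. None of these stood for a gene, but all stayed in the fit and its adjustment.

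Differences were fitted with limma 3.58.1 (lmFit, eBayes) in R 4.3.3 over all 6 arrays and all probe sets, without a block. The same fit was run on simulated data whose arrays were independent. That run could not test the fit under the likeness of same-numbered arrays described below. Each gene took its probe set of highest mean. Members and lists were chosen with earlier results of these data known. Named genes are the members, the 3 of smallest p in each pathway and marker list and all genes of lists of 5 or fewer. Kit, Tcf3, Klf1, Myb, Spi1, Cpa3 and Hhex were added after their values were seen. Deviations from group means of same-numbered arrays correlated at 0.285, 0.116 and 0.115 over 1 probe set per gene. They correlated at 0.326, 0.106 and 0.227 over probe sets outside the dim 30%, and at 0.212, 0.0569 and 0.140 over all probe sets. In each of these sets all 6 arrays correlated best with the array of their own number. The fit took no block because the labels do not say what a replicate number shares. Alternatives changed the normalization, centring, filter, probe sets, variance model, weights, block or arrays.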

Additional observations from a re-analysis of the deposited data

How the results depend on the processing

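None of the 10 genes passed an adjusted p of 0.05 in any of 160 fits of a member under 16 alternatives (smallest limma adjusted p 0.702 with 1 knockout array and 0.709 otherwise, largest difference 0.22 in size). Direction was kept in 139, a count that includes fits unable to change it. The dim filter, named probe sets only, limma-trend and the replicate block leave each member's difference as it is. The mean of all probe sets of a gene changes only Gata3. Lyl1, Zfpm1, Cbfa2t3 and Gfi1b kept their direction in all 16 alternatives. The other 6 changed sign in at least 1, and the cause was not tested. Over the fits that leave out 1 array, differences ran from -0.017 to 0.028 for Gata1, -0.088 to 0.012 for Gata2, -0.156 to 0.103 for Gata3, -0.046 to 0.037 for Tal1, -0.039 to 0.043 for Lmo2, -0.014 to 0.008 for Ldb1, 0.019 to 0.145 for Lyl1, 0.044 to 0.123 for Zfpm1, -0.214 to -0.032 for Cbfa2t3 and 0.029 to 0.077 for Gfi1b. Without the 3 arrays of mixed sex-linked signal, chosen after the data were seen, signs turned for Gata1 (-0.028), Gata3 (0.112), Tal1 (-0.034) and Lmo2 (-0.058). A further quantile normalization turned Tal1 (-0.008) and Ldb1 (0.021), and a block by sex-linked signal, in which wild-type replicate 2 forms a class of its own and drops out, turned Ldb1 (0.012). The replicate block turned no sign, since it leaves differences as they are, and called 0 probe sets. Probe sets past the threshold numbered 0 in the fit as reported, 1 with arrays centred on their medians, 1 with array weights and 2 without knockout replicate 3 (0 without each other array); none was a member. Over all probe sets the median difference was 0.0056 in the fit as reported, -0.0093 after a further quantile normalization and 0.0057 with centred arrays. Centring and quantile normalization align the arrays, so values near 0 were set in advance and say nothing of the members.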

Other observations

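Marker lists of blood cells were also read whole; the B cell, T cell, mast cell, stem cell and erythroid lists appear in part above, and all 8 megakaryocyte markers are also among the megakaryocyte targets above. Of 10 granulocyte and monocyte markers, 5 were higher and 5 lower in the knockout, with a median difference of 0.01 (0.25, with 8 above 0, without the 3 arrays of mixed sex-linked signal); Csf3r differed by -0.18 (SE 0.09), S100a8 by 0.39 (SE 0.24) and S100a9 by 0.24 (SE 0.18). Of 8 measured B cell markers, 7 were above 0 and 1 below, with a median of 0.38 (0.86 without the 3 mixed arrays) and overlapping groups for all 8; between same-numbered arrays the list mean was higher in the knockout in 3 of 3 pairs, and with a replicate block in the model the smallest limma adjusted p over all probe sets was 0.766; Cd79a differed by 0.56 (SE 0.27), Ebf1 by 0.54 (SE 0.34) and Blnk by 0.34 (SE 0.22). Of 9 T cell markers 6 were above 0, with a median of 0.07; Cd4 differed by 0.27 (SE 0.12), Thy1 by -0.17 (SE 0.14) and Cd3g by 0.18 (SE 0.17). The mast cell and basophil list had a median of -0.01, with Hdc at 0.18 (SE 0.09), Mcpt8 at -0.35 (SE 0.20) and Cma1 at 0.17 (SE 0.10). Of 9 stem and multipotent progenitor markers 8 were below 0, with a median of -0.13 (-0.02, with 5 below 0, without the mixed arrays); Mecom differed by -0.13, Slamf1 by -0.14 (SE 0.13) and Procr by -0.11 (SE 0.11). The 8 erythroid markers had a median of 0.06, with Epor at 0.11 (SE 0.12), and the 8 megakaryocyte markers one of -0.15 (0.13 and -0.07 without the mixed arrays). Limma's adjusted p was 1 for each gene of these lists, and 1 of them, Itga2b, had an unadjusted p under 0.05. Of the genes named in this paragraph, S100a8, Cd3g, Hdc, Mcpt8, Cma1 and Mecom were dim.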
